A study of Homo sapiens with 12 samples.

Results

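RKO is a human colon carcinoma cell line. The genes described here are 34 genes of cholesterol and fatty acid synthesis and their control, taken by symbol from the 26364 genes counted in every library. They comprise 7 mevalonate enzymes, 9 enzymes from squalene to cholesterol, 5 genes of sterol sensing, 8 fatty acid enzymes and 5 genes of sterol transport and efflux. Enough reads for testing were present for 31 of the 34. Polyadenylated RNA was sequenced in 12 libraries from 6 groups of 2, to examine what loss or excess of PRDM1, a zinc-finger repressor of transcription, does to these cells. The groups were wild-type RKO, 2 derivatives knocked out for PRDM1 with CRISPR/Cas9 (KO2, KO5), a derivative overexpressing GFP, and 1 derivative each for PRDM1 alpha and PRDM1 beta, both overexpressed. All of them were grown in McCoy's medium with fetal bovine serum, penicillin and streptomycin, so every group had serum lipoproteins in its medium. The labels do not give the promoter or vector of the overexpressed genes, nor whether KO2 and KO5 are each 1 clone. Nor do they say whether both libraries of each group were separate cultures, so a p-value here reflects library-to-library spread that may be technical. That spread beyond counting error, as a fitted coefficient of variation, was 2.18%. Each group is 1 derivative or the wild type, so no p-value or SE here measures variation between derivatives made in the same way.

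Cells make cholesterol from acetyl-CoA through the mevalonate pathway, and make fatty acids from the same precursor through acetyl-CoA carboxylase and fatty acid synthase. Transcription of these enzymes is driven by the sterol regulatory element-binding proteins, encoded by SREBF1 and SREBF2. SCAP escorts these membrane-bound proteins to the Golgi for cleavage, and the INSIG proteins hold SCAP in the endoplasmic reticulum when sterols are plentiful. SREBF2 is known mainly for sterol genes and SREBF1 mainly for fatty acid genes, while liver X receptors switch on efflux genes such as ABCA1 and ABCG1 when oxysterols accumulate. INSIG1 is itself a target of the binding proteins, which makes its RNA a common readout of their activity.

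Promoters of 4 members that moved with the overexpressed forms are shown because sterol-responsive promoters are known for an SRE core next to a CCAAT box, the site of the NF-Y cofactor. Each is the 250 bases before a RefSeq start in GRCh38.p14, written 5′ to 3′ along the gene, with matches in capitals. The letters searched on both strands were CACNCCAC for the SRE core and CCAAT for the box, and neighbouring CCAAT matches on opposite strands can overlap. INSIG1 lies at chr7:155297628-155297877 on the plus strand, SREBF2 at chr22:41832855-41833104 on the plus strand, IDI1 at chr10:1048887-1049136 on the minus strand and HMGCS1 at chr5:43313413-43313662 on the minus strand.
INSIG1: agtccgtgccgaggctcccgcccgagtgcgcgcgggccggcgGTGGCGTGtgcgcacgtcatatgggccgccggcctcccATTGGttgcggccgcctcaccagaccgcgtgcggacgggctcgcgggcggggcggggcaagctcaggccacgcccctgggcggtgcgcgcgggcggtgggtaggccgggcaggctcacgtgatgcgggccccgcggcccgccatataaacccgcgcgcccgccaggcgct
SREBF2: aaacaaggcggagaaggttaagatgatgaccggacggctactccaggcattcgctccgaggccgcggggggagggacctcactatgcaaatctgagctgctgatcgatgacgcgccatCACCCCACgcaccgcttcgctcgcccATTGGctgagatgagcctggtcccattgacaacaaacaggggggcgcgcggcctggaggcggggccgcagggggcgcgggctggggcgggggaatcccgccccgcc
IDI1: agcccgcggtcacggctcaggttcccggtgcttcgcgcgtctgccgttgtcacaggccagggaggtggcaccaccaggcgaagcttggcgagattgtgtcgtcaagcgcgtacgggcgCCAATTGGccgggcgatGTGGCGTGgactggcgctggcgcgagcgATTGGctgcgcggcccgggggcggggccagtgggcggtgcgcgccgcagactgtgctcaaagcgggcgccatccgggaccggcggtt
HMGCS1: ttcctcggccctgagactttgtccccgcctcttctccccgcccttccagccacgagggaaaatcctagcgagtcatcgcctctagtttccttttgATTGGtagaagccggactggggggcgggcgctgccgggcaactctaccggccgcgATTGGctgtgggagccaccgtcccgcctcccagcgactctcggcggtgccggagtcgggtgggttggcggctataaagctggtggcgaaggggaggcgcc
INSIG1 and SREBF2 each held 1 SRE core and 1 CCAAT box, and IDI1 held 1 SRE core and 3 CCAAT matches. The HMGCS1 window held 2 CCAAT boxes and no CACNCCAC, which says only that these letters are not in this window. IDI1 has 3 starts in the RefSeq table and HMGCS1 has 2, and the start shown was the one with most matches. Among the 29 members with a promoter in the table, the SRE core letters occurred in 6 (ABCA1, ACACA, IDI1, INSIG1, SCD and SREBF2), and a CCAAT match in 19. A gene counted if any of its starts matched, and on that basis 5.89% of 27305 genes in the table held the SRE core and 37.0% held CCAAT. Per promoter the shares were 4.87% and 32.0% of 35116. The 4 promoters shown were chosen by name and are not those of the 4 members that rose most. With alpha against GFP, MVD (log2 0.35), CYP51A1 (0.29) and NSDHL (0.22) rose more than SREBF2 (0.20) and held no SRE core letters. A match is a description of the letters and not a binding site.

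Libraries held 19058967 to 55961821 gene counts, and 3 counts, the limit for a gene with no reads, equal 0.0536 to 0.157 CPM (counts relative to library size), with counting error only. PRDM1 was near the limit of detection in wild type, with 4 counts in each library, which leaves no room to check its loss: KO2 had 0 and 1 counts and KO5 had 1 in each. GFP libraries held 2 and 6 counts of PRDM1, against 11475 and 9681 with alpha and 22395 and 28423 with beta, or 487 and 478 CPM against 1173 and 1172 CPM. Of 7 colon epithelial markers, KRT8, KRT18 and CDX2 were expressed, whereas EPCAM had no count and KRT19, CDH1 and VIL1 had at most 2 in any library. Of 8 markers of other cell types only the collagen gene COL1A1 was tested, and DCN, CD3E, CSF1R and PECAM1 had no count in any library. The summed level of those 8 was 5.79 to 5.96 CPM with GFP, 9.80 to 10.1 with alpha, and 6.72 to 8.02 with beta. Wild-type libraries summed to 6.47 to 8.12 CPM, KO2 to 5.15 to 6.13 and KO5 to 5.84 to 6.27, and its part in the results was not tested. Fold changes also moved with the GC content of the transcript: the Spearman correlation over 12532 genes was -0.52 for KO5 against wild type, -0.07 for KO2 against wild type, 0.19 for alpha and 0.15 for beta against GFP, and -0.67 for GFP against wild type. These genes share libraries, and values corrected for this trend are given where they change a call named below. In bulk RNA, fewer cells of a kind and less RNA per cell cannot be told apart.

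Per kilobase of transcript, SCD was the most abundant member in wild type at 157 CPM per kb, followed by ACLY at 124, FASN at 85.4 and FDPS at 78.1. SCD puts the first double bond into saturated fatty acyl chains, ACLY makes cytosolic acetyl-CoA from citrate, FASN builds palmitate and FDPS makes farnesyl diphosphate. The other mevalonate and sterol enzymes were lower on this scale, from IDI1 at 46.5 CPM per kb and EBP at 40.5 to HSD17B7 at 6.43 and TM7SF2 at 5.43. The other tested fatty acid enzymes lay in the same range, with ACACA at 18.6, ELOVL6 at 12.1 and FADS2 at 7.68 CPM per kb. The sensing genes SREBF2, INSIG1 and SREBF1 stood close together at 36.2, 36.1 and 33.2 CPM per kb. In the wild-type libraries SREBF2 was at 188 and 191 CPM, INSIG1 at 111 and 106 CPM and SREBF1 at 137 and 141 CPM before division by length. FADS1 (a fatty acid desaturase) had 6 counts in all 12 libraries together, while ELOVL5 (a fatty acid elongase) and ABCG1 (a sterol exporter) had none, and these 3 were not tested. Whether their absence lies in the counting or in expression was not tested either. Exons of 16 of the 34 members overlap those of another annotated gene, for 13 of them on the opposite strand, and whether the counting used strand is not given. For HMGCS1, IDI1 and SREBF2 the partner on the opposite strand is an antisense RNA, and reads of the 2 genes cannot be told apart without strand. Partners on the opposite strand include coding genes for ACAT2 (SOD2 and TCP1), SREBF1 (RAI1), MVK (MMAB) and NPC1 (RMC1). CYP51A1 shares 2844 exon bases with a coding entry on its own strand (AC000120.2), where strand cannot separate the reads. FDPS has processed pseudogenes, and how reads shared with such copies were counted is not given.

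With the alpha form against GFP, 7 of the 16 mevalonate and sterol enzymes rose and none fell, with a median log2 fold change of 0.10, whereas 5 of 6 tested fatty acid enzymes fell, with a median of -0.16. Of 16 tested further genes of fatty acid synthesis, which are not members, 7 rose and 1 fell (median 0.09). Over the 31 tested members 10 rose and 8 fell at an adjusted p under 0.05 (edgeR), beside 21.2% of all 12858 tested genes called higher, 16.3% called lower and 37.5% in either direction. The median log2 fold change was 0.07 over the members and 0.01 over all genes. The members' median was 0.03 without GFP replicate 2 and 0.02 with GC correction. ABCA1 is one of the 10 and passed the low-count filter only through the overexpression libraries, so its call is no support for the others.

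HMGCS1, the synthase that feeds the pathway with HMG-CoA, stood at 123 and 134 CPM in the GFP libraries and at 210 and 227 CPM in the alpha libraries. Both alpha values lay above every other library of the study, including the beta libraries at 177 and 186 CPM. The fold change was 1.70, or 0.76 ± 0.04 (SE, n = 2 libraries per group) on the log2 scale, with an adjusted p of 4.2e-21. IDI1 isomerises isopentenyl diphosphate further down the pathway, and it stood at 161 and 175 CPM with GFP against 251 and 260 CPM with alpha. It rose 1.52-fold (log2 0.60 ± 0.04, adjusted p = 1.87e-19), and its groups did not overlap either. Those of LSS, HSD17B7, SCAP and NPC1, which did not pass, were also separate. The share of all genes with separate groups was not computed. MVD, which decarboxylates mevalonate diphosphate, rose by 0.35 ± 0.07 (adjusted p = 1.46e-04) at a lower level, from 19.9 and 20.1 CPM to 23.3 and 28.0 CPM. Its alpha libraries spread more than its GFP libraries, and both exceeded them.

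The other 4 mevalonate enzymes did not pass with alpha: ACAT2, which condenses acetyl-CoA, had a log2 fold change of 0.06, the kinases MVK and PMVK had 0.03 and 0.11, and FDPS had 0.01. Among the sterol enzymes, the lanosterol demethylase CYP51A1 rose by 0.29 ± 0.04, NSDHL by 0.22 ± 0.06, the last-step reductase DHCR7 by 0.16 ± 0.04 and squalene epoxidase SQLE by 0.15 ± 0.05. The remaining 5 (FDFT1, LSS, TM7SF2, EBP and HSD17B7) had log2 fold changes of -0.12 to 0.10 that did not pass. HSD17B7 was the 1 enzyme of the 16 with a negative estimate. INSIG1 rose with the enzymes, from 106 and 116 CPM to 139.6 and 147 CPM (log2 0.37 ± 0.05, adjusted p = 6.14e-07). SREBF2 rose by 0.20 ± 0.04, from 175 and 176 CPM to 199 and 205 CPM (adjusted p = 2.55e-06). SREBF1 libraries overlapped, at 115 and 110.2 CPM with GFP and 103 and 115 CPM with alpha, and it did not pass (-0.05 ± 0.04, adjusted p = 0.40). INSIG2, the second retention protein, fell by 0.27 ± 0.07, and SCAP did not pass (0.10, adjusted p = 0.0509).

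SCD fell by 0.32 ± 0.03 with alpha (adjusted p = 6.09e-11), from 821 and 855 CPM to 663 and 681 CPM, with a clear gap between the groups. ACACA, the carboxylase that makes malonyl-CoA, fell by 0.20 ± 0.04, the desaturase FADS2 by 0.18 ± 0.07, the elongase ELOVL6 by 0.14 ± 0.04 and ACLY by 0.08 ± 0.03. FASN did not pass as fitted, at 641 and 571 CPM with GFP and 578 and 594 CPM with alpha (-0.05 ± 0.07, adjusted p = 0.64). Its alpha values lay between the GFP libraries. With GC content accounted for, FASN was called lower (-0.19), and so was SREBF1 (-0.18). Among the transport genes, MYLIP, a ubiquitin ligase that marks lipoprotein receptors for degradation, fell from 26.8 and 27.1 CPM to 15.9 and 18.9 CPM (log2 -0.64 ± 0.07, adjusted p = 3.44e-10). STARD4, a cytosolic sterol carrier, fell by 0.22 ± 0.05, and the lysosomal cholesterol exporter NPC1 did not pass (0.11).

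ABCA1, the transporter that loads cholesterol on apolipoprotein A-I, was barely detected. Each GFP library held 1 count of it, the alpha libraries 11 and 13, and the beta libraries 7 and 2. Each wild-type library also held 1, the KO2 libraries 2 and 1, and the KO5 libraries 1 and 0. Per read of each group, alpha held 14.6 times the GFP count (95% exact binomial interval 3.62 to 127) and beta 5.54 times (1.15 to 52.7), covering counting error only. The edgeR test called ABCA1 with alpha (adjusted p = 1.24e-04) and not with beta (adjusted p = 0.0525), and with alpha its highest level was 0.641 CPM. Compared directly, alpha and beta did not differ by that test (adjusted p = 0.154). ABCA1 passed the low-count filter only through the overexpression libraries, where it is high. These ratios and p-values therefore describe a gene selected by that level and are no independent support. The fibroblast collagen gene COL1A1 rose with alpha as well (log2 0.74 ± 0.12, 5.92 and 5.78 CPM against 9.59 and 9.96 CPM), and whether these low signals share a source was not tested.

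Calls of 6 of these 18 members were lost when 1 library was left out. ACLY did not pass when GFP replicate 1 (-0.06), alpha replicate 1 (-0.07) or alpha replicate 2 (-0.09) was dropped, nor FADS2 on dropping the same libraries (-0.11, -0.18 and -0.18), SQLE without GFP replicate 1 (0.07) or alpha replicate 2 (0.10), ELOVL6 without GFP replicate 2 (-0.11), and DHCR7 and INSIG2 without alpha replicate 2 (0.11 and -0.22).

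**Figure D1:**
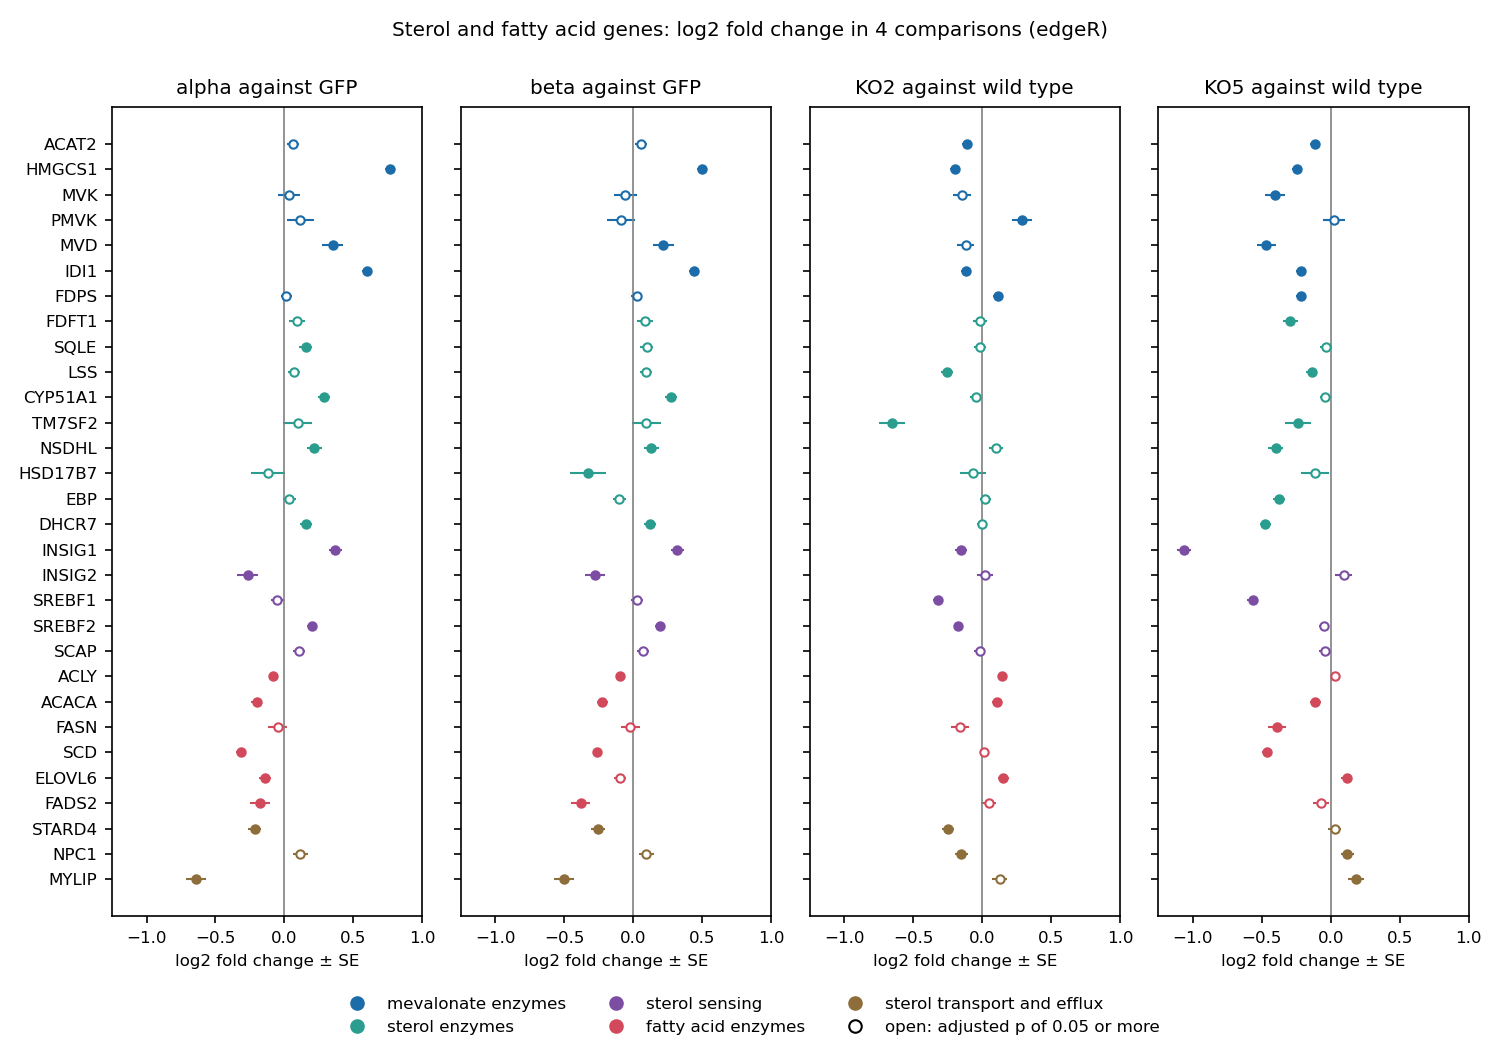
Log2 fold change (x axis, ± SE) of 30 members, ordered by pathway, in alpha or beta against GFP and in KO2 or KO5 against wild type, 2 libraries per group; filled points had an adjusted p under 0.05. ABCA1 is left out for its low counts. HMGCS1 and IDI1 stand farthest right with alpha and beta, MYLIP farthest left, and INSIG1 at -1.06 farthest left in KO5.

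With the beta form, 3 of the 7 mevalonate enzymes (HMGCS1, IDI1 and MVD) and INSIG1 rose, the other 4 mevalonate enzymes did not pass, and 4 of the 6 tested fatty acid enzymes fell. The GFP libraries also serve as the controls of alpha, so agreement between the 2 comparisons is not independent. Of the 16 mevalonate and sterol enzymes 6 rose and 1 fell (median 0.09), and the median of the fatty acid enzymes was -0.16. With the DESeq2 Wald test only 3 of the 16 rose, beside 16.9% of all genes called higher. The median of the 16 was 0.06 without GFP replicate 1 or with GC correction. Over all 31 members 8 rose and 8 fell, beside a background of 22.9% higher, 18.0% lower and 40.9% in either direction. With the GC trend removed the split was 6 higher and 11 lower, beside 20.4% and 20.5% of all genes. MVD (0.05) and DHCR7 (0.08) were then no longer called. Among 16 tested further genes of fatty acid synthesis, which are not members, 9 rose and 1 fell as fitted (median 0.11).

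HMGCS1 rose 1.41-fold with beta, to 177 and 186 CPM (log2 0.50 ± 0.04, adjusted p = 1.77e-14), and IDI1 rose 1.36-fold, to 230.5 and 227 CPM (log2 0.44 ± 0.04, adjusted p = 1.58e-14). CYP51A1 rose by 0.27 ± 0.04, MVD by 0.22 ± 0.07, NSDHL by 0.13 ± 0.06 and DHCR7 by 0.12 ± 0.04. HSD17B7 fell by 0.33 ± 0.13, where beta replicate 1 was low, at 4.61 CPM against 6.23 CPM in replicate 2. INSIG1 reached 134 and 142 CPM (log2 0.32 ± 0.05, adjusted p = 5.38e-06) and SREBF2 203 and 200.2 CPM (log2 0.20 ± 0.04, adjusted p = 3.29e-06), both above the 2 GFP libraries. INSIG2 fell by 0.28 ± 0.07. SREBF1, at 111 and 118 CPM, overlapped its controls (0.03, adjusted p = 0.66), and was called lower with GC correction (-0.13). SCAP (0.07), NPC1 (0.09) and the other 9 enzymes of sterol synthesis, from -0.10 (EBP) to 0.10 (SQLE), did not pass.

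FADS2 fell by 0.38 ± 0.07 with beta, from 26.7 and 24.3 CPM to 20.0 and 19.1 CPM, SCD by 0.26 ± 0.03 to 684 and 714 CPM, ACACA by 0.23 ± 0.04 and ACLY by 0.09 ± 0.03. FASN (-0.02) and ELOVL6 (-0.10) did not pass as fitted, but with the GC trend removed all 6 fatty acid enzymes were called lower with beta, as they were with alpha, FASN at -0.18. MYLIP fell to 18.5 and 19.5 CPM (log2 -0.50 ± 0.07, adjusted p = 1.03e-07) and STARD4 by 0.26 ± 0.05. Calls of 5 of the 16 members were lost on leaving out 1 library: NSDHL without GFP replicate 1 (0.13) or 2 (0.12) or beta replicate 1 (0.16) or 2 (0.10), MVD without GFP replicate 1 or 2 (0.21 each) or beta replicate 2 (0.18), HSD17B7 without GFP replicate 1 (-0.34) or 2 (-0.33) or beta replicate 1 (-0.15), DHCR7 without GFP replicate 1 or beta replicate 2 (0.11 each), and ACLY without the same libraries (-0.07 and -0.08).

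Compared directly, the alpha and beta libraries differed in 2 of the 31 members, beside 6.24% of all genes, 3.45% higher and 2.79% lower with alpha. Both members were mevalonate enzymes. HMGCS1 was higher with alpha by 0.27 ± 0.04 (adjusted p = 1.01e-06) and IDI1 by 0.16 ± 0.04 (adjusted p = 0.00179). The IDI1 difference was not called without alpha replicate 2 (0.13) or beta replicate 2 (0.15). PRDM1 itself was at less than the beta level in the alpha libraries, as given above. FADS2, with fold changes of -0.18 and -0.38 against GFP, differed by 0.20 ± 0.08 between the forms and did not pass.

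**Figure D2:**
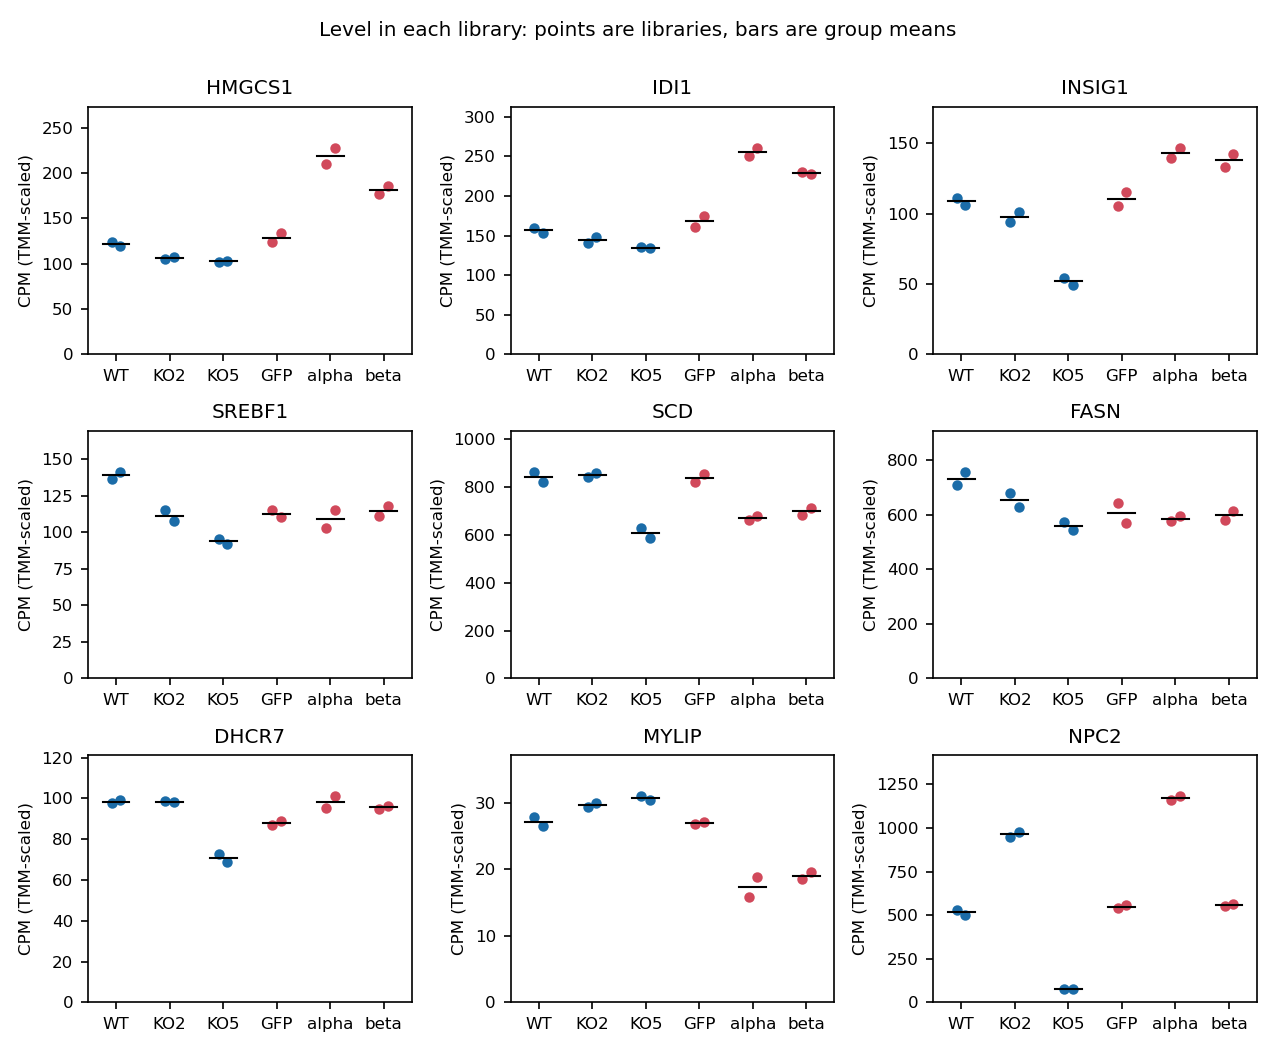
Level in CPM (y axis from 0, scaled by TMM) of 8 members and the lysosomal gene NPC2 in each of the 12 libraries, by group; bars are means of 2 libraries. HMGCS1, IDI1 and INSIG1 are highest with alpha, INSIG1 and SCD are lowest in KO5 at 49.5 to 54.2 CPM and 588 to 629.9 CPM, and MYLIP is lowest with alpha and beta.

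In KO2 the members changed in both directions and by little. Of 31, 5 rose and 10 fell, beside 15.1% of all genes higher, 14.9% lower and 30.0% in either direction, and the members' median log2 fold change was -0.02 (-0.04 without wild-type replicate 2). Among the 16 enzymes of sterol synthesis 2 rose (PMVK by 0.29 ± 0.07 and FDPS by 0.11) and 5 fell (median -0.05, or -0.03 without wild-type replicate 1), with 3 falls called without KO2 replicate 1. The fatty acid enzymes had 3 rises and no fall, namely ELOVL6 and ACLY by 0.15 each and ACACA by 0.11.

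TM7SF2, a sterol C14 reductase of the endoplasmic reticulum, fell most in KO2, from 9.55 and 9.16 CPM to 5.51 and 6.40 CPM (log2 -0.66 ± 0.09, adjusted p = 2.54e-07). Both KO2 values were below all other libraries. LSS, which closes the sterol ring, fell by 0.25 ± 0.04, HMGCS1 by 0.20 ± 0.04 (124 and 120 CPM to 105 and 107 CPM), IDI1 by 0.12 ± 0.03 and ACAT2 by 0.11. All 3 sensing genes that were called fell: SREBF1 from 137 and 141 CPM to 115 and 108 CPM (log2 -0.32 ± 0.04, adjusted p = 2.77e-08), SREBF2 from 188 and 191 CPM to 168 CPM in each library (-0.17 ± 0.03, adjusted p = 2.2e-05) and INSIG1 from 111 and 106 CPM to 94.0 and 101 CPM (-0.15 ± 0.04, adjusted p = 0.0095). The KO2 and wild-type libraries did not overlap for these 3 genes. Nor did they for MVD, MVK, NSDHL, CYP51A1, FASN, FADS2, MYLIP or ABCA1, which did not pass. The share of all genes without overlap was not computed for any comparison. STARD4 fell by 0.25 ± 0.04 and NPC1 by 0.15 ± 0.05. FASN did not pass (680.1 and 627 CPM, -0.16 ± 0.07, adjusted p = 0.107), nor did SCD (0.02), FADS2 (0.05), INSIG2 (0.02), SCAP (-0.02) or MYLIP (0.13). The 9 sterol synthesis enzymes that did not pass, MVD, MVK, CYP51A1, DHCR7, EBP, FDFT1, HSD17B7, NSDHL and SQLE, had log2 fold changes of -0.14 to 0.10. Correction for GC content ended the call of ACACA (0.10) and brought one for FASN (-0.12).

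Leaving out 1 library ended 7 of the 15 KO2 calls: ACACA without wild-type replicate 1 (0.11) or 2 (0.10) or KO2 replicate 1 (0.04), ACAT2 without wild-type replicate 2 or either KO2 library (-0.11 each), FDPS without wild-type replicate 2 (0.11), IDI1 and INSIG1 without wild-type replicate 1 (-0.09 and -0.12) or KO2 replicate 1 (-0.08 and -0.10), NPC1 without wild-type replicate 1 (-0.12) or KO2 replicate 2 (-0.13), and PMVK without KO2 replicate 1 (0.22).

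In KO5 most enzymes of sterol synthesis fell. Of the 16 mevalonate and sterol enzymes 12 fell and none rose, with a median log2 fold change of -0.23. Over all 31 members 17 fell and 3 rose (median -0.14, or -0.23 without KO5 replicate 1), beside 25.9% of all genes lower, 25.2% higher and 51.2% in either direction, with a median of 0.00 over all genes. KO5 and KO2 share the wild-type libraries as controls. With GC content accounted for, the median of the 16 enzymes was -0.17 and 11 of them were called lower, against 19.6% of genes. LSS (-0.0034) and TM7SF2 (-0.02) then lost their calls, and CYP51A1 gained one (-0.14).

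INSIG1 had the largest change of any member that was well detected, from 111 and 106 CPM to 54.2 and 49.5 CPM in KO5, which is 0.478 times wild type (log2 -1.06 ± 0.05, adjusted p = 1.53e-15). It was -1.12 with the GC trend removed. SREBF1 fell to 95.3 and 92.2 CPM (log2 -0.57 ± 0.04, adjusted p = 2.05e-14), and removal of the GC trend left -0.30. SREBF2, at 188 and 178 CPM against 188 and 191 CPM, did not pass (-0.05, adjusted p = 0.196). INSIG2 (0.09) and SCAP (-0.04) did not pass either. Correction for GC content brought calls for SREBF2 (0.08) and SCAP (0.17).

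DHCR7 fell from 97.8 and 99.0 CPM to 72.6 and 69.1 CPM (log2 -0.48 ± 0.04, adjusted p = 1.16e-14), and MVD from 23.2 and 24.4 CPM to 16.9 and 17.7 CPM (-0.47 ± 0.07, adjusted p = 1.01e-07). Neither gene overlapped between the groups, but nor did HSD17B7, INSIG2, CYP51A1, SCAP or SREBF2, which did not pass. MVK and NSDHL fell by 0.40 each, the sterol isomerase EBP by 0.37, FDFT1 (squalene synthase) by 0.29, HMGCS1 by 0.25, TM7SF2 by 0.24, IDI1 and FDPS by 0.22 each, LSS by 0.14 and ACAT2 by 0.12. The 4 enzymes that did not pass were PMVK (0.02), CYP51A1 (-0.04), SQLE (-0.04) and HSD17B7 (-0.11). The fold changes in this paragraph are as fitted, without GC correction. MVD, MVK and DHCR7 are GC-rich, at 65.6%, 59.45% and 58.3%, beside a median of 49.2% over all tested genes.

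In the fatty acid branch SCD fell from 863 and 820.1 CPM to 629.9 and 588 CPM (log2 -0.47 ± 0.03, adjusted p = 5.31e-16), FASN from 707 and 755 CPM to 575 and 543 CPM (-0.39 ± 0.07, adjusted p = 0.00146) and ACACA by 0.11 ± 0.04. FASN is GC-rich, and its value was -0.11 with the GC trend removed, still called. ELOVL6 rose by 0.12 ± 0.04, a call that was lost with the GC trend removed (0.01). ACLY (0.03) and FADS2 (-0.07) did not pass. Among the transport genes STARD4 (0.03) did not pass as fitted and was called lower after GC correction (-0.15), while NPC1 rose by 0.12 ± 0.05 and MYLIP by 0.18 ± 0.06, from 27.8 and 26.4 CPM to 30.9 and 30.4 CPM. Leaving out 1 library ended 7 of the 20 calls: TM7SF2 without wild-type replicate 1 (-0.21) or 2 (-0.27) or KO5 replicate 1 (-0.26) or 2 (-0.22), LSS without KO5 replicate 2 (-0.06), ACACA without wild-type replicate 1 (-0.11) or KO5 replicate 1 (-0.09), ACAT2 without KO5 replicate 2 (-0.11), ELOVL6 without wild-type replicate 2 or KO5 replicate 2 (0.10 each), and MYLIP and NPC1 without wild-type replicate 2 (0.14 and 0.09) or KO5 replicate 1 (0.17 and 0.08).

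**Figure D3:**
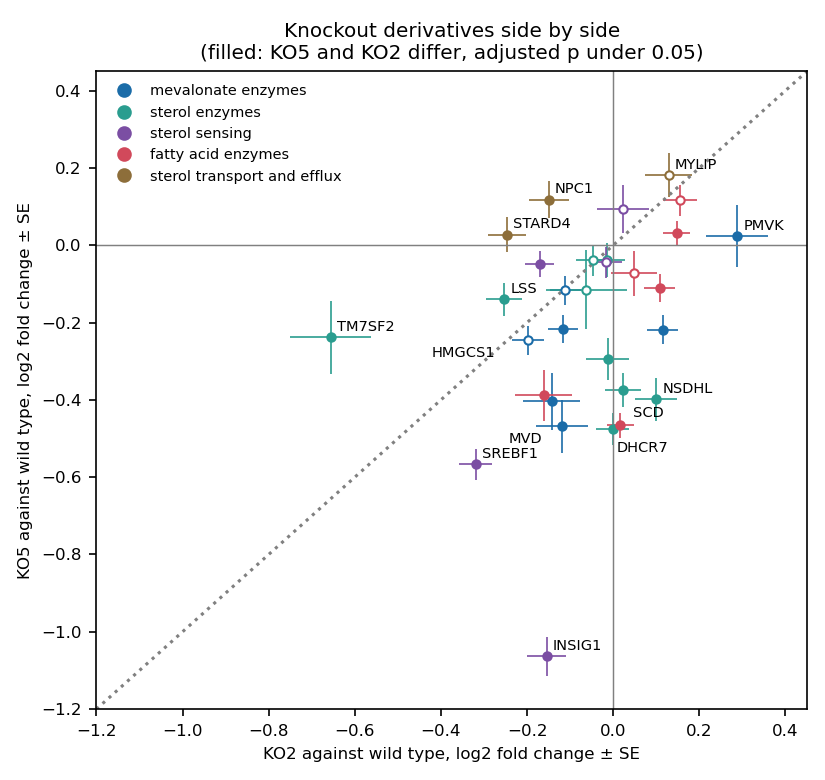
Log2 fold change against wild type in KO2 (x axis) and KO5 (y axis), ± SE, for 30 members, 2 libraries per group; both axes share the wild-type libraries, the dotted line marks equal change and filled points differ between KO5 and KO2 at an adjusted p under 0.05. INSIG1, DHCR7, SCD, NSDHL and MVD lie well under the line, and TM7SF2, LSS, STARD4 and NPC1 above it.

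The knockout derivatives differed from each other in 20 of the 31 members, with 15 lower and 5 higher in KO5, beside 28.1% of all genes lower, 26.9% higher and 54.9% in either direction. INSIG1 differed most (log2 -0.91 ± 0.05), then NSDHL (-0.50), SCD (-0.48) and DHCR7 (-0.47), none of which overlapped between the KO2 and KO5 libraries. Nor did FADS2, MYLIP, HMGCS1, ELOVL6 or HSD17B7 overlap, and these did not pass as fitted. TM7SF2 was higher in KO5 by 0.42. Correction for GC content ended the calls of SREBF1 (-0.02), MVD (-0.11), MVK (-0.12), PMVK (-0.12), FASN (0.0099) and STARD4 (0.10), and brought calls for HMGCS1 (-0.16), ELOVL6 (-0.14), CYP51A1 (-0.09) and SCAP (0.16). HMGCS1, CYP51A1, SQLE and ACAT2 did not pass (-0.05, 0.01, -0.02 and -0.01). FDPS and ACACA were called in opposite directions in KO2 and KO5 against wild type, as was NPC1. The members that rose with alpha against GFP and fell in KO5 against wild type, comparisons that share no library, were HMGCS1, IDI1, MVD, DHCR7, NSDHL and INSIG1, which are 6 of the 10 rises and 6 of the 17 falls. Over all genes 1025 did so, or 7.97% of those tested, 37.6% of the alpha rises and 30.7% of the KO5 falls. This sharing was read after the values were known and was not tested.

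The GFP derivative differed from wild type in 9 members, 3 higher and 6 lower, beside 8.81% of all genes higher, 10.2% lower and 19.0% in either direction. SREBF1 was lower with GFP by 0.30, FASN by 0.27, MVD by 0.26, SCAP by 0.21, DHCR7 by 0.16 and SREBF2 by 0.11, while STARD4 was higher by 0.16 and IDI1 and ELOVL6 by 0.11 each. Across the 31 members the Spearman correlation of this fold change with transcript GC content was -0.86, a description of genes from the same 4 libraries. With the GC trend removed edgeR called 0 of the 31 members and 0.638% of all genes. SREBF1 stood at 115 and 110.2 CPM with GFP against 137 and 141 CPM in wild type. As fitted, its alpha and beta values thus also lie under wild type without differing from GFP by the test. With the GC trend removed SREBF1 was not called between GFP and wild type (-0.12), and was called lower with alpha and with beta against GFP, as given above. Leaving out 1 library ended 6 of the 9 calls: ELOVL6 without wild-type replicate 1 (0.13) or 2 (0.10) or GFP replicate 2 (0.06), FASN, IDI1 and SREBF2 without wild-type replicate 2 (-0.22, 0.08 and -0.10) or GFP replicate 2 (-0.19, 0.04 and -0.11), and MVD and STARD4 without wild-type replicate 2 (-0.21 and 0.13).

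**Figure D4:**
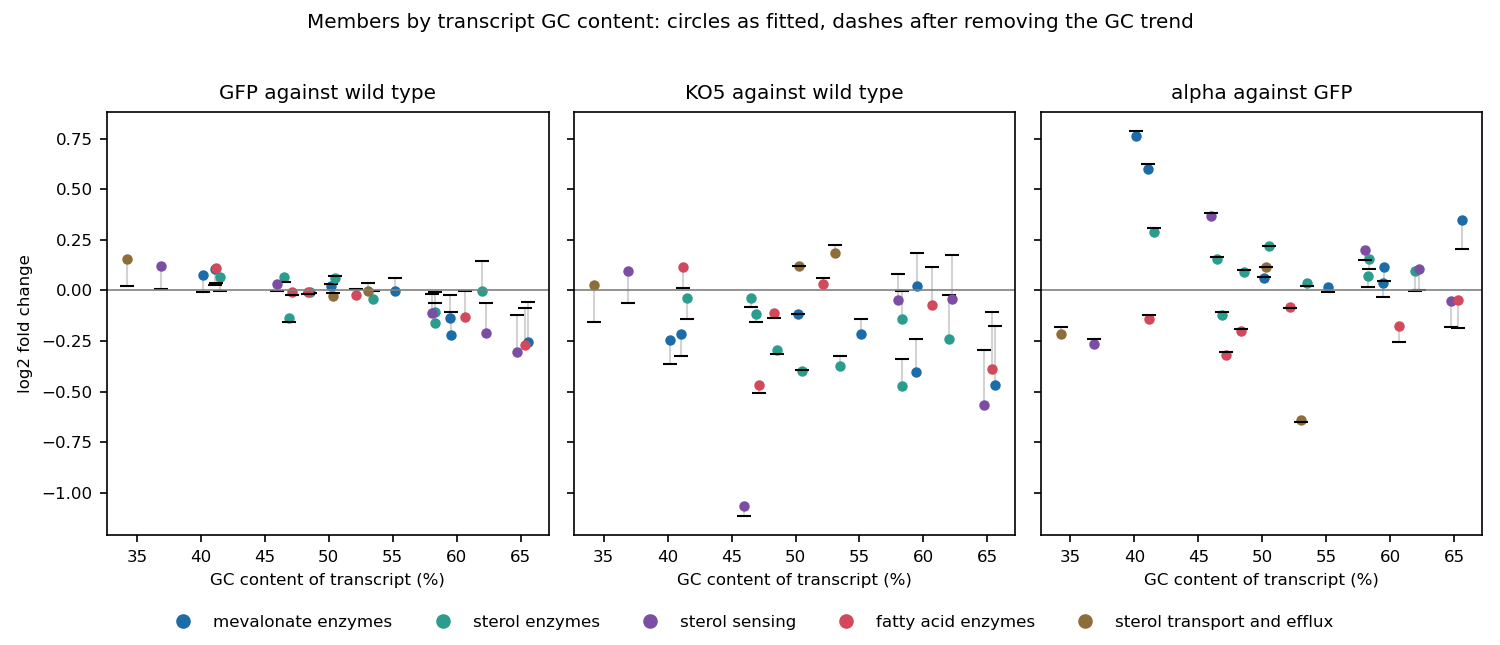
Log2 fold change (y axis) of the members against GC content of the transcript in percent (x axis) for GFP and KO5 against wild type and alpha against GFP; circles are fitted values, dashes the values corrected for the trend over all genes, and ABCA1 is left out. In the GFP panel the members slope down with GC and the dashes lie near 0, whereas INSIG1 in KO5 and HMGCS1 and IDI1 with alpha keep their distance from 0.

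Set against the mean of KO2 and KO5, the mean of alpha and beta was higher for 19 members and lower for 10. The background was 31.0% higher, 27.7% lower and 58.8% in either direction. ABCA1 is one of the 19 and passed the low-count filter only through the overexpression libraries, so its call is no support for the others. Of the 16 mevalonate and sterol enzymes 14 were higher and 2, PMVK (-0.36) and HSD17B7 (-0.27), lower, with a median log2 difference of 0.22. INSIG1 (0.98 ± 0.04), HMGCS1 (0.93 ± 0.03) and IDI1 (0.79 ± 0.03) differed most among the well-detected members that were higher. Of the 6 fatty acid enzymes 5 were lower, with FADS2 at -0.40 and FASN, at -0.03, not passing. With GC correction MVK (0.09) and SREBF1 (0.01) lost their calls and FASN was called lower (-0.16). Of the 29 calls as fitted, 7 were lost in at least 1 fit that left out a library. The contrast also carries the difference between the GFP and wild-type backgrounds.

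Other genes of the same pathways, listed by function, moved in both directions. Those of fatty acid synthesis rose more often than they fell with alpha and beta, unlike the fatty acid enzymes among the members. Over all genes the shares called higher and lower were 21.2% and 16.3% with alpha, 22.9% and 18.0% with beta, 15.1% and 14.9% in KO2, and 25.2% and 25.9% in KO5. Of 9 further sterol and isoprenoid genes 3 rose and 2 fell with alpha, 3 and 1 with beta, 1 and 2 in KO2 and 1 and 2 in KO5 (0 and 5 with GC correction). Of 15 further genes of sterol regulation and handling, 4 rose and 1 fell with alpha, 4 and 3 with beta, 3 and 0 in KO2 and 3 and 6 in KO5 (2 and 5 with GC correction). NPC2, the lysosomal protein that hands cholesterol to NPC1, had the largest changes among these. It stood at 531 and 500 CPM in wild type, 949.8 and 978 CPM in KO2, 74.9 and 75.5 CPM in KO5, 539.7 and 557 CPM with GFP, 1163 and 1182 CPM with alpha and 553 and 564 CPM with beta. The log2 fold change was 1.10 ± 0.03 with alpha, 0.03 with beta (not passing), 0.90 ± 0.03 in KO2 and -2.78 ± 0.04 in KO5, so that the knockout derivatives moved in opposite directions. SOAT1, which esterifies cholesterol, fell by 0.34 ± 0.05 with alpha and by 0.38 ± 0.05 with beta. The gene of the liver X receptor alpha, NR1H3, fell by 0.48 ± 0.20 with beta (adjusted p = 0.0465), a call that was lost without GFP replicate 1 (-0.46) or 2 (-0.51) or beta replicate 2 (-0.25). It was also lost with the replicate block (-0.48, adjusted p = 0.0576) and with the DESeq2 Wald test (-0.48, adjusted p = 0.133).

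Among 16 tested further genes of fatty acid synthesis 7 rose and 1 fell with alpha, 9 and 1 with beta, 3 and 1 in KO2 and 4 and 5 in KO5 (1 and 5 with GC correction). The shares of all genes, higher and lower, were 21.2% and 16.3%, 22.9% and 18.0%, 15.1% and 14.9%, and 25.2% and 25.9% in the same order. The median log2 fold change of these 16 genes was 0.09 with alpha and 0.11 with beta. That of the 6 tested fatty acid members was -0.16 in each. With GC correction 5 of the 16 rose and 2 fell with alpha, beside 18.8% and 17.6% of all genes. With beta 8 rose and 2 fell, beside 20.4% and 20.5%. LPIN1, a phosphatidate phosphatase, rose by 0.32 ± 0.05 with alpha and 0.38 ± 0.04 with beta and fell by 0.61 ± 0.04 in KO5, from 73.9 CPM in both wild-type libraries to 48.5 and 48.3 CPM. ELOVL1 and FADS3 rose with beta by 0.35 and 0.31. ACSL4, an acyl-CoA synthetase, rose by 0.43 ± 0.03 in KO2, and the citrate carrier SLC25A1 fell by 0.34 ± 0.04 in KO5, which removal of the GC trend reduced to -0.05, no longer called.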

How the data were processed

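Polyadenylated RNA of RKO derivatives was sequenced with a stranded library kit, per the labels' protocols. The authors deposited whole-number counts per gene symbol for each of 12 libraries. The submitters' processing notes name TopHat, Bowtie2, Cufflinks and hg19. Their versions and roles, the read counter and its use of strand are not given in the sources used here. Each count file held 26366 entries. Those naming no gene, with 9.13% to 10.8% (no feature) and 1.66% to 1.75% (ambiguous) of reads, were left out. The deposited comparison tables were not used here.

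The analysis used edgeR 4.0.16 under R 4.3.3 (filterByExpr, 12858 genes kept, TMM scaling, glmQLFit with robust, glmQLFTest). All 12 libraries in 6 groups shared 1 fit, 8 comparisons were made, and p-values were adjusted by Benjamini-Hochberg over all tested genes, with calls at 0.05. SEs follow Wald's method, using fitted means and dispersions. GC content and length came from GENCODE v29 (97.5% of tested genes matched), and the GC trend was removed by loess with a span of 0.5. Promoters came from RefSeq, GRCh38.p14, a different build from hg19 and used for sequence only, with 29 of 34 members found. Intervals and the floor of 3 counts cover counting error only. Alternatives were DESeq2 1.42.0, its size factors, no filter, only the compared groups, a replicate block, each library left out, GC removal and changes beyond 1.2-fold. Values in every library are given for members called with a log2 fold change of at least 0.5 in any of the 4 treatment comparisons, and for INSIG1, SREBF1, SREBF2, HMGCS1, FASN and ABCA1. Up to 3 genes per further list and comparison, called at 0.3 or more, are named. Members and lists were chosen with earlier results of these data known.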

Additional observations from a re-analysis of the deposited data

Results flagged for a closer look

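The following members are given because 2 derivatives or forms changed differently, as tested directly between their libraries with edgeR (adjusted p under 0.05, 2 libraries per group). KO5 was below KO2, on the log2 scale, for INSIG1 (-0.91), NSDHL (-0.50), SCD (-0.48), DHCR7 (-0.47), EBP (-0.40), MVD (-0.35), FDPS (-0.33), FDFT1 (-0.28), PMVK (-0.26), MVK (-0.26), SREBF1 (-0.25), FASN (-0.23), ACACA (-0.22), ACLY (-0.12) and IDI1 (-0.10). KO5 was above KO2 for TM7SF2 (0.42), STARD4 (0.27), NPC1 (0.27), SREBF2 (0.12) and LSS (0.11). These are 20 of 31 members, beside 54.9% of all genes. With the GC trend removed SREBF1 (-0.02), MVD (-0.11), MVK (-0.12), PMVK (-0.12), FASN (0.0099) and STARD4 (0.10) were no longer called. Of the 20, 5 calls were lost on leaving out 1 library: FASN without KO2 replicate 1 (-0.17) or KO5 replicate 2 (-0.19), IDI1 without KO2 replicate 2 (-0.06) or KO5 replicate 2 (-0.09), LSS without KO2 replicate 1 (0.12) or 2 (0.11) or KO5 replicate 1 (0.03), PMVK without KO2 replicate 1 (-0.20) or KO5 replicate 1 (-0.22), and SREBF2 without KO5 replicate 1 (0.08). Alpha was above beta for HMGCS1 (0.27) and IDI1 (0.16), which are 2 of 31 members, beside 6.24% of all genes. The IDI1 call was lost without alpha replicate 2 (0.13) or beta replicate 2 (0.15). Neither gene was called for a change beyond 1.2-fold.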

How the results depend on the processing

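The numbers of members called were 18 with alpha and 16 with beta against GFP, 15 in KO2 and 20 in KO5 against wild type, 2 for alpha against beta, 20 for KO5 against KO2, 9 for GFP against wild type and 29 for overexpression against knockout. With each library left out in turn, where the lone library of a group is assumed to vary like the others, they ranged from 14 to 18, 12 to 15, 11 to 13, 16 to 18, 1 to 2, 17 to 18, 3 to 13 and 24 to 28. Asking for a change beyond 1.2-fold left 4, 3, 1, 7, 0, 6, 0 and 9. The shares of all genes called beyond 1.2-fold were 7.86%, 9.08%, 3.69%, 10.1%, 1.17%, 14.7%, 0.0156% and 14.8% in the same order. GFP against wild type had 5 calls with the DESeq2 Wald test and 0 with the GC trend removed. Among values called as fitted that are named, removing the GC trend turned the direction of FASN in KO5 against KO2 (0.0099), of FADS3 (0.0607) and ACSL4 (-0.0719) in KO5 against wild type, and of SLC25A1 in GFP against wild type (0.0041). Members not called as fitted that were called with the opposite sign after it were SREBF1 with beta (-0.13), SREBF2 (0.08), SCAP (0.17) and STARD4 (-0.15) in KO5, and SCAP (0.16) and CYP51A1 (-0.09) in KO5 against KO2. Libraries with the same replicate number did not deviate together (correlations -0.07 to 0.06). These correlations cannot tell whether same-numbered libraries were grown or prepared together. With the replicate number as a block the counts were 18, 16, 15, 20, 2, 20, 9 and 29 in the same order, and no member's call changed. At these depths ABCA1 lies near the floor. FADS1, ELOVL5 and ABCG1 gave too few reads to test, and whether counting or expression accounts for that was not tested.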

Other observations

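Of 16 fatty acid oxidation genes, 4 rose and 1 fell with alpha, 5 rose and 3 fell with beta, 2 rose and 7 fell in KO2, and 5 rose and 7 fell in KO5 (2 and 5 with GC correction), each against its control. Over all genes the shares called higher and lower were 21.2% and 16.3%, 22.9% and 18.0%, 15.1% and 14.9%, and 25.2% and 25.9% in the same order. With beta the carnitine carrier SLC25A20 rose by 0.38 on the log2 scale. The collagen gene COL1A1 was lower in KO2 by 0.39 and in KO5 by 0.31 than in wild type, calls that were lost without wild-type replicate 2 (-0.20 and -0.11) and without the second library of KO2 (-0.28) or KO5 (-0.26), respectively. The KO5 call was also lost with GC correction (-0.11), and both were lost with the DESeq2 Wald test (-0.38 and -0.29).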
